A study of Mus musculus with 8 samples.

Results

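The comparison described here set iguratimod-treated experimental autoimmune encephalomyelitis (EAE) against naive mice, within each of 2 genotypes, on 4 of the 8 arrays of a mouse microarray series. The members were chosen by their labels alone. They were 1 array of Cx47-deficient mice with EAE and iguratimod, 1 array of wild-type (WT) mice with EAE and iguratimod, 1 array of naive Cx47-deficient mice and 1 array of naive WT mice. All were C57Bl/6J, with astrocytes given as the source and spinal cord as the tissue. Their titles mark the arrays called WT here as FL and the Cx47-deficient ones as icKO. The other arrays held 1 sample of each genotype with untreated EAE and 1 of each with chronic EAE. The Cx47 deletion was conditional and specific to oligodendroglia, per the series title. The Cre driver, the age and number of the mice, the iguratimod dose and schedule and the isolation of the cells are not stated in the sources used.

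EAE is a mouse model of multiple sclerosis in which autoreactive T cells enter the central nervous system and drive inflammation and demyelination. Iguratimod is an anti-inflammatory drug used against rheumatoid arthritis. Interferon gamma from T cells acts through transcription factors such as IRF1 on genes of chemokines, antigen presentation and defence GTPases, and such genes are well-known features of EAE tissue. The question the comparison addresses is how much of the difference between disease and health was still measured under treatment.

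Levels are given as log2 processed signal minus the array's 75th percentile, and values of a group are given for the Cx47-deficient array first and the WT array after it. The 4 arrays lay on 1 slide, and the share of their spots well above background ran between 59.7% and 65.8%. Each group of genotype and condition held 1 array, and nothing in the labels says that arrays carried separate animals. The p-values therefore measure only the spread left among all 8 arrays of the series after condition and genotype were fitted. These include the chronic EAE arrays, which lay on another slide, and the spread may be technical.

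The source label was checked against cell type markers. Of 18 astrocyte markers, 18 were measured, and their levels summed on the linear scale (each signal as a multiple of the array's 75th percentile) came to 568 and 655 on the iguratimod arrays, against 579 and 673 on the naive arrays. Neuronal markers were present too. The summed level of 13 general neuronal genes was 416 and 426 with iguratimod, against 403 and 467 in naive mice, and Snap25, which encodes a presynaptic protein, reached 5.72 and 5.94 with iguratimod, against 5.89 and 5.96 in naive mice. Of 12 markers of cerebellar neurons and 12 of striatal neurons, all passed the filter, as did 13 of 13 Hox genes, which are expressed in spinal cord and hindbrain and not in forebrain. RNA with neuronal and brain region markers was thus measured beside astrocyte markers on these arrays, and its part in the results below was not tested. In such bulk RNA, fewer cells of a type and less RNA per cell cannot be told apart.

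Of the listed genes that passed the filter on low values, 2 of 9 CXC and 4 of 10 CC chemokines, 6 of 13 interferon-induced GTPases, 4 of 10 MHC class II genes and 2 of 14 complement genes rose in iguratimod-treated EAE over naive mice. Across 22854 genes, limma called 46 genes higher and 0 lower at a Benjamini-Hochberg adjusted p under 0.05, a background of 0.201% of the genes tested in either direction. At an unadjusted p under 0.05 there were 1042 higher (4.56%) and 552 lower (2.42%), 6.97% of genes in all. All 46 were higher in both genotypes. Of the 46 genes, 20 were not well above background on either naive array, and their changes are therefore given as lower bounds, which ran between 1.81-fold and 87.7-fold. The fitted differences of the other 26 ran between 2.21 and 6.10 on the log2 scale. Those 20 genes passed the filter only through the iguratimod arrays, so a call on them could hardly be downward. Any p-value printed beside a lower bound, here and below, comes from the measured values under background and not from the bound. Of all genes tested, 201 were not above background on either naive array, and 144 were not on either iguratimod array. In 45 of the 46 the rise was larger in the Cx47-deficient pair, as in 70.2% of the 5348 genes higher in both genotypes and in 213 of the 234 such genes with a fitted difference of at least 2.21. Over all genes the SD of the differences was 0.863 in the Cx47-deficient pair and 0.558 in the WT pair. The 46 calls also depended on the other arrays in the fit and on the filter. Fitted on the 4 arrays alone, limma called 0 genes, on slide 1 alone 3, and with no filter 1. The number of calls rested on single arrays: it was 0 without either iguratimod array, 0 when naive Cx47-deficient mice were left out, and 60 when naive WT mice were left out, while all 46 estimates stayed above 0 in each of these.

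**Figure D1:**
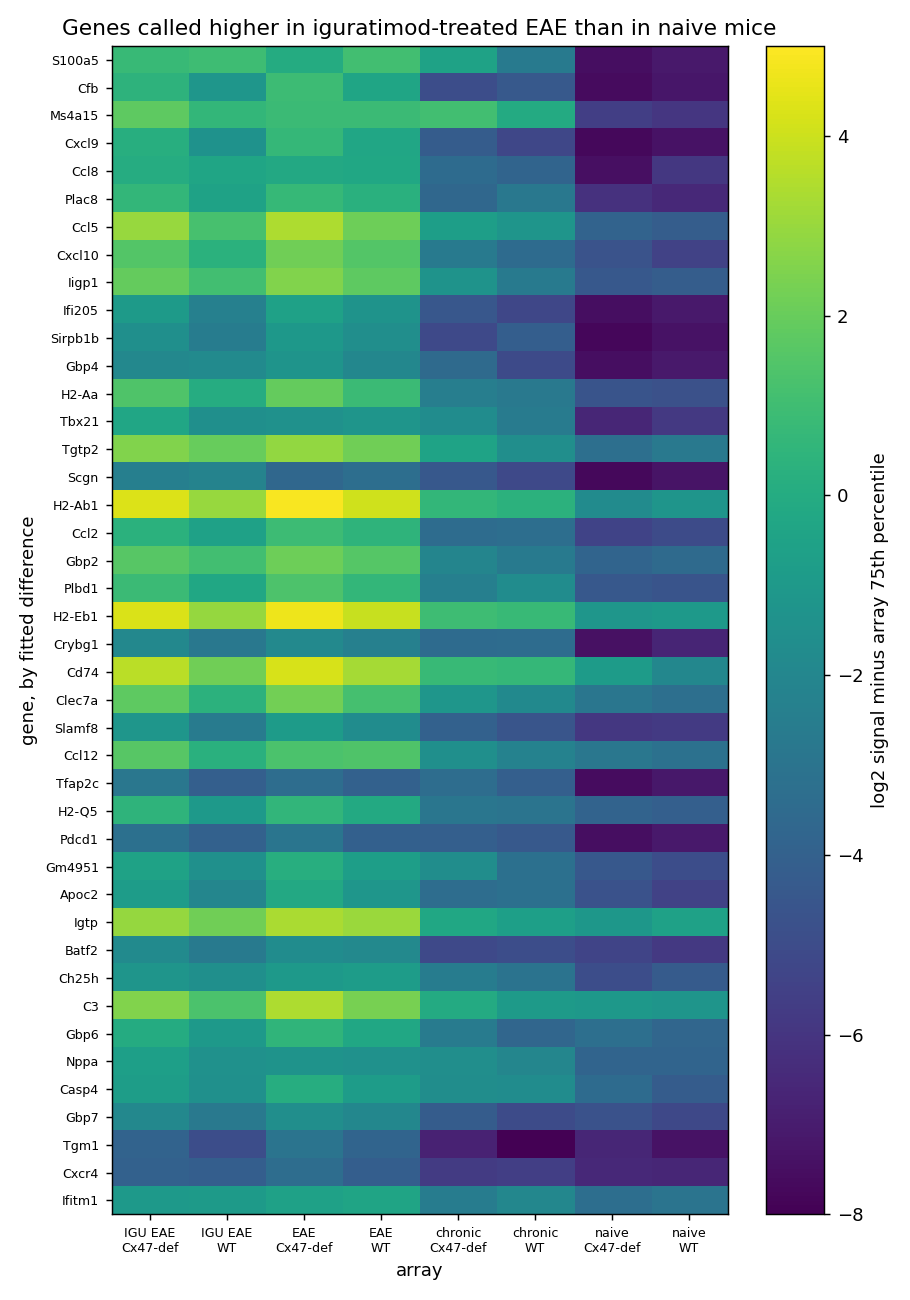
Levels of the called genes that carry a RefSeq symbol (rows, by fitted difference) on the 8 arrays (columns), as log2 signal minus the array's 75th percentile. Both iguratimod columns lie above both naive columns in every row, and the untreated EAE columns look much like the iguratimod ones.

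Large differences shared by both pairs, counted without a test, also lay mostly upward. In 436 genes both pairs were higher by 2-fold or more (1.91% of genes), against 65 genes lower by as much (0.284%). Over differences of any size, the iguratimod and naive arrays did not overlap in 3413 genes with iguratimod higher (14.9%) and in 4118 with iguratimod lower (18%). That order depended on the scaling: it was 3680 higher and 1971 lower with median centring, and 3894 higher and 3883 lower with quantile normalization. The pairs also differed in how far they moved. In the WT pair 668 genes were higher (2.97%) and 251 lower (1.12%) by 2-fold, so 72.7% of the differences were upward. In the Cx47-deficient pair 1247 were higher (5.46%) and 1906 lower (8.35%), an upward share of 39.5%, which became 52% with quantile normalization, 63.9% with median centring, 50.8% after normexp background correction and 51.9% in the authors' processed values.

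**Figure D2:**
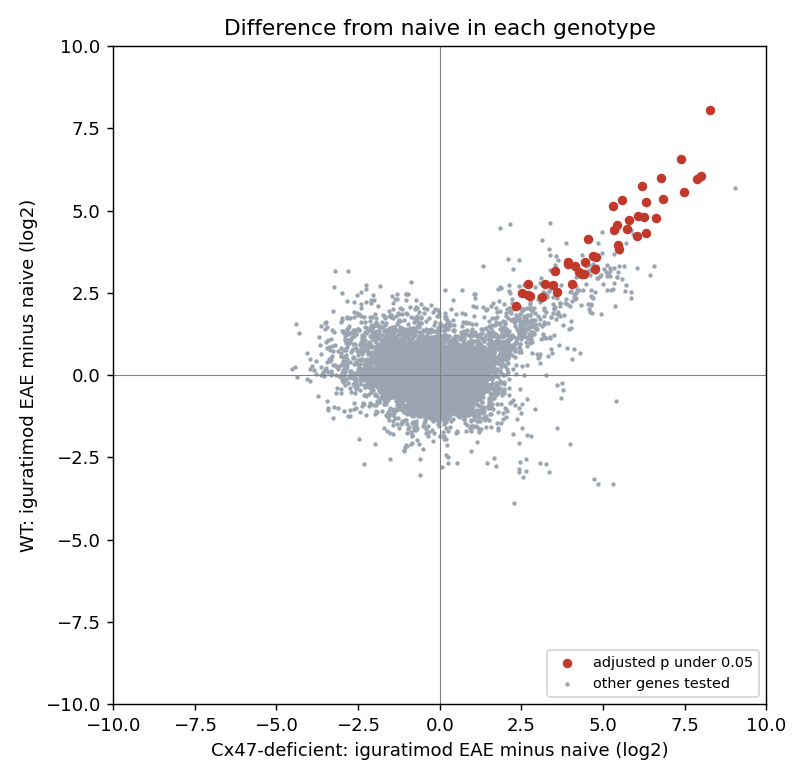
Difference between iguratimod-treated EAE and naive arrays for each gene tested, in Cx47-deficient mice (x axis) and WT mice (y axis), on the log2 scale. The called genes lie in the upper right, while of the 22808 other genes 50% have the same sign in both genotypes.

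Chemokines, which draw leukocytes into tissue, held some of the largest rises. Cxcl10, a ligand of CXCR3, a chemokine receptor on T cells, stood at 1.52 and 0.32 with iguratimod, against -4.67 and -5.42 in naive mice. In naive mice it was well above background on 1 of the 2 arrays. Both iguratimod arrays lay far above both naive arrays, and the gap was wide beside the differences within each group. Its fitted difference was 5.97 ± 0.19 (SE) with an adjusted p of 0.00594, the smallest of all genes. On the 4 arrays alone the adjusted p was 0.317, and it ranged between 0.0258 and 0.0851 when single arrays were left out. Cxcl9, another CXCR3 ligand, stood at 0.14 and -1.39 with iguratimod, against -7.74 and -7.34 in naive mice. The naive values were not above background, so that Cxcl9 rose at least 25.0-fold, and its adjusted p of 0.0296 in the limma fit rests on these naive values.

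Promoters of 2 chemokines and 3 GTPases among the called genes are shown because interferon and NF-kB act on such genes through short DNA motifs. They were picked by hand and each holds a match, so they do not stand for the called genes as a whole. Each is the 250 bases before the start of the gene, from RefSeq on GRCm38.p6, read 5′ to 3′ on the gene's strand: Cxcl10 on chr5:92348890-92349139 (minus strand), Cxcl9 on chr5:92328080-92328329 (minus), Gbp2 on chr3:142620413-142620662 (plus), Igtp on chr11:58199306-58199555 (plus) and Gbp7 on chr3:142530086-142530335 (plus). Capitals mark matches on either strand to the interferon-stimulated response element core (GAAA, any 2 bases, GAAA), the gamma-activated site (TTC, any 3 bases, GAA) and the NF-kB motif (GGGA, any 4 bases, CC).
Cxcl10: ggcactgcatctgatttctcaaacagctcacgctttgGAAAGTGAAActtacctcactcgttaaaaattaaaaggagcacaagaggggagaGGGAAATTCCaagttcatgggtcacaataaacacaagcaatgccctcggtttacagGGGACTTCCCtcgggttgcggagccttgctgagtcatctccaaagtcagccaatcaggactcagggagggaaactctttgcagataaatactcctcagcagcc
Cxcl9: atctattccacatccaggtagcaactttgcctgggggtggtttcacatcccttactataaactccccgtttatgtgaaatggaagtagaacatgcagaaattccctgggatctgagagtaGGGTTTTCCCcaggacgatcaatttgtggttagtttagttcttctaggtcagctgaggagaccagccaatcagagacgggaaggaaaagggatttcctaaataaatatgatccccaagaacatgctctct
Gbp2: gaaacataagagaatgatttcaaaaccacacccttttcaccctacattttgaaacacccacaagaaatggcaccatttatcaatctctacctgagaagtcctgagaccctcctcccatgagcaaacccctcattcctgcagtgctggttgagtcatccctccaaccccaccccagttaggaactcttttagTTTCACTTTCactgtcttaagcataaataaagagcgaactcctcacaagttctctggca
Igtp: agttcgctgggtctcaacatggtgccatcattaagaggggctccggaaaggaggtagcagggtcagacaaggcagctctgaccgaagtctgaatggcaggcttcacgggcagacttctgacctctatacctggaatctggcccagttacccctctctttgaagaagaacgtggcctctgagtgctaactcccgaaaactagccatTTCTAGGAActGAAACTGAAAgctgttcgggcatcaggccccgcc
Gbp7: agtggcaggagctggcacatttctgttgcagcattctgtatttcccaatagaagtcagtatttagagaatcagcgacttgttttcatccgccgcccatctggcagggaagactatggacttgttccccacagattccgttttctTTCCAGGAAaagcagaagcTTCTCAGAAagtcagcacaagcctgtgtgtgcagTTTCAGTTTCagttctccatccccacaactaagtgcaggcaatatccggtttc
In Cxcl10 the response element core lay at -213 to -204 and NF-kB matches at -159 to -150 and -103 to -94, counted from the start. Cxcl9 held an NF-kB match at -130 to -121. The response element core lay at -59 to -50 in Gbp2, at -34 to -25 in Igtp and at -53 to -44 in Gbp7. Gamma-activated sites lay at -45 to -37 in Igtp and at -106 to -98 and -87 to -79 in Gbp7, and no marked matches overlapped. Of the 30 called genes with a promoter in the table, 10 held the response element core in this window (33.3%), against 3.2% of 13515 genes tested and 3.46% of all 27025 genes. The gamma-activated site occurred in 20% of the called genes, against 7.28% of genes tested, and the NF-kB motif in 26.7%, against 25.2%. Families differed. Of listed GTPases with a promoter, 8 of 9 held the response element core. Of 8 CC chemokines, 1 held it, 0 held the gamma-activated site and 3 held the NF-kB motif, and none of these was a called gene. Of 8 class II genes, the counts were 1, 1 and 2 in the same order. Each is a count of letters and not of bound sites.

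Among the CC chemokines, Ccl5, which attracts T cells and monocytes, stood at 3.0 and 1.20 with iguratimod, against -3.84 and -4.15 in naive mice. The groups were well apart, and Ccl5 rose by 6.10 ± 0.39 (adjusted p = 0.0296). Ccl2, the main chemoattractant of CCR2-bearing monocytes, was at 0.32 and -0.58 with iguratimod, against -5.40 and -5.02 in naive mice, a rise of 5.08 ± 0.34 (adjusted p = 0.0296). Ccl8 and Ccl12, further ligands of monocyte receptors, also rose, Ccl8 at least 34.8-fold and Ccl12 by 3.94 ± 0.35. Of 12 CC chemokines, 10 passed the filter on low values, 4 rose under the test, and 9 had both iguratimod arrays above both naive arrays. Over all genes tested, 14.9% lay without overlap upward and 18% downward, the shares to set beside this and each later list count. List members not above background on either naive array passed the filter only through the iguratimod arrays. Such members could hardly lie without overlap downward. Of 10 CXC chemokines, 9 passed the filter, 2 rose and 7 did not overlap. Their median differences were 2.88 for CC and 2.79 for CXC chemokines, beside -0.03 over all genes tested, and became 2.42 and 1.87 with members not above background in naive mice at their lower bound. Cxcl11, named after its values were seen, did not overlap downward (-0.16 ± 0.15, adjusted p = 0.837). Among members that did not pass the test, Cxcl13, the B cell chemoattractant, was at -0.97 and -3.97 with iguratimod, against -7.42 and -7.02 in naive mice (adjusted p = 0.13). Ccl7 was at least 6.04-fold higher (adjusted p = 0.06), and Cxcl16 differed by 3.12 ± 0.42 (adjusted p = 0.084). The chemokine receptor Cxcr4 rose at least 2.35-fold.

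Several interferon-induced GTPases, which attack membranes around intracellular pathogens, rose. Of 14 listed, 13 passed the filter, 2 of them only through the iguratimod arrays. Of the 13, 6 rose under the test, 11 did not overlap upward, 1 did not overlap downward, and the median difference was 3.07. The lower one was Gbp5, named after its values were seen, with a difference of -0.70 ± 0.36 (adjusted p = 0.782), which turned to 1.19 with the mean of its probes. Iigp1 stood at 1.91 and 1.08 with iguratimod, against -4.41 and -4.19 in naive mice, and rose by 5.80 ± 0.37 (adjusted p = 0.0296). Gbp2, a guanylate-binding protein, was at 1.61 and 1.05 with iguratimod, against -3.81 and -3.51 in naive mice. Its rise was 4.99 ± 0.28 (adjusted p = 0.0296), again with a wide gap between the groups. Igtp rose by 3.40 ± 0.33, Gbp6 by 2.99 ± 0.20 and Gbp7 by 2.59 ± 0.19, and Gbp4 rose too (adjusted p = 0.0463). Gbp4 was at -1.92 and -1.78 with iguratimod, against -7.49 and -7.10 in naive mice, where it was not above background. Tgtp2, a related GTPase outside the list, rose by 5.25 ± 0.39. Gbp8 fell just short of the threshold, at least 4.38-fold higher (adjusted p = 0.051). Near-identical copies exist within these families and within the MHC genes, so a probe may also report a relative of the gene it is named for.

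Antiviral genes of the interferon response were higher in all members, though none passed the test. All 18 listed passed the filter and had both iguratimod arrays above both naive arrays, with a median difference of 2.74. For 3 of them the naive arrays were not above background, and with these at their lower bound the median was 2.53. Isg15, a ubiquitin-like modifier, was at 2.40 and 1.41 with iguratimod, against -1.27 and -0.77 in naive mice (2.93 ± 0.35, adjusted p = 0.068). Zbp1, a sensor of nucleic acids, was at -0.34 and -1.33 with iguratimod, against -5.81 and -4.46 in naive mice (4.30 ± 0.55, adjusted p = 0.076). Ifi44 was at least 4.24-fold higher (adjusted p = 0.0604) and Oas1a, a synthase of the RNA decay pathway, differed by 4.07 ± 0.57 (adjusted p = 0.0874). Of 15 transcription factors, receptors and inhibitors of interferon signalling, none passed the test, 8 did not overlap upward, and the median difference was 0.32. Irf7 had the largest difference among them, 3.88 ± 0.51 (adjusted p = 0.083), followed by Irf1 at 2.23 ± 0.34 (adjusted p = 0.11). Interferon gamma itself, Ifng, was at -3.72 and -4.95 with iguratimod, against -7.81 and -7.41 in naive mice, where it was not above background (adjusted p = 0.086). Other called genes known as interferon-induced were Ifi205, at least 12.6-fold higher, Batf2, at least 7.90-fold higher, Ifitm1, with a rise of 2.21 ± 0.18, and the inflammatory caspase Casp4, with a rise of 2.72 ± 0.25.

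Some called genes belonged to no list. Ms4a15, a member of the MS4A membrane protein family, stood at 1.77 and 0.61 with iguratimod, against -5.61 and -5.97 in naive mice, and rose at least 87.7-fold (adjusted p = 0.0256). Nppa, which encodes atrial natriuretic peptide, was at -0.67 and -1.41 with iguratimod, against -3.81 and -3.79 in naive mice, a rise of 2.76 ± 0.24 (adjusted p = 0.0409). Neither gene had overlapping groups. Apoc2, an activator of lipoprotein lipase, rose by 3.66 ± 0.35 and the phospholipase B-like gene Plbd1 by 4.86 ± 0.44. Crybg1 rose at least 7.46-fold and the transcription factor gene Tfap2c at least 3.57-fold.

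Of the genes of MHC class II, which presents antigen to helper T cells, 4 rose. H2-Ab1 stood at 4.30 and 2.99 with iguratimod, against -1.75 and -1.24 in naive mice. H2-Eb1 stood at 4.28 and 2.94 with iguratimod, against -1.18 and -1.01 in naive mice. In both genes the groups were far apart, and the rises were 5.13 ± 0.44 for H2-Ab1 (adjusted p = 0.0409) and 4.70 ± 0.38 for H2-Eb1 (adjusted p = 0.0365). H2-Aa rose by 5.44 ± 0.35. Cd74, the invariant chain and also a receptor of the cytokine MIF, was at 3.66 and 2.18 with iguratimod, against -0.87 and -1.96 in naive mice, a rise of 4.34 ± 0.34 (adjusted p = 0.0363). Of 11 class II genes, 10 passed the filter, these 4 rose and 9 did not overlap upward, with a median of 2.11. Class I genes and the immunoproteasome, which cuts peptides for them, held no call: of 15 listed, 14 passed the filter, 13 did not overlap upward, and the median was 2.06. H2-Q4, named after its values were seen, did not overlap downward (-0.70 ± 0.49, adjusted p = 0.808). B2m, the shared light chain, was at 5.75 and 4.99 with iguratimod, against 2.88 and 3.31 in naive mice (2.28 ± 0.30, adjusted p = 0.084). The proteasome subunit Psmb8 differed by 3.28 ± 0.36 (adjusted p = 0.06). Tap1, a peptide transporter subunit, differed by 3.08 ± 0.37 (adjusted p = 0.0665). H2-Q5, a class I gene outside the list, rose by 3.71 ± 0.35.

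Among complement genes, factor B and C3 rose. Cfb, complement factor B, stood at 0.40 and -1.16 with iguratimod, against -7.60 and -7.21 in naive mice, and rose at least 29.6-fold (adjusted p = 0.0409). C3, the component on which the pathways converge, was at 2.55 and 1.30 with iguratimod, against -1.06 and -1.21 in naive mice. It rose by 3.06 ± 0.29 (adjusted p = 0.0492), close to the threshold, with no overlap between the groups. Of 15 complement genes, 14 passed the filter, 2 of them, Cfb and C1s1, only through the iguratimod arrays. Cfb and C3 rose, and 12 did not overlap upward, with a median of 1.29. Itgam, a subunit of complement receptor 3 named after its values were seen, did not overlap downward (-0.34 ± 0.15, adjusted p = 0.765). C4b differed by 3.04 ± 0.43 (adjusted p = 0.087) and C1qa by 1.31 ± 0.35 (adjusted p = 0.39).

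Astrocyte identity genes, in contrast, showed no call in either direction. The median of the 18 listed was -0.03, and 1 gene did not overlap upward and 2 downward, beside 14.9% and 18% of all genes. Gja1, which encodes connexin 43, was at 0.20 and 0.50 with iguratimod, against 0.28 and 0.53 in naive mice (-0.06 ± 0.26). Gjb6, which encodes connexin 30, was at 2.80 and 3.31 with iguratimod, against 2.76 and 3.25 in naive mice (0.05 ± 0.27). The water channel Aqp4 differed by 0.12 ± 0.40. Fabp7, a fatty acid binding protein, had the largest difference of the list, 1.21 ± 0.36 (adjusted p = 0.502). The ranges of Gja1, Gjb6 and Aqp4 overlapped. The signs of Gja1 and Gjb6 depended on the processing, and each of these genes, Aqp4 too, changed sign when single arrays were left out. Of 13 reactive astrocyte genes, 12 passed the filter, 9 did not overlap upward, and Cxcl10, which is on this list too, was the called one. Gfap, the intermediate filament gene that marks reactive astrocytes, was at 3.51 and 3.17 with iguratimod, against 2.41 and 2.12 in naive mice. Both iguratimod values were higher, yet the difference of 1.07 ± 0.21 had an adjusted p of 0.20. Lcn2, lipocalin 2, was at 1.18 and 0.82 with iguratimod, against -3.68 and -3.20 in naive mice (4.44 ± 0.49, adjusted p = 0.06), and Timp1 was at 0.04 and -0.33 with iguratimod, against -2.08 and -2.38 in naive mice (2.08 ± 0.21, adjusted p = 0.051). Osmr, the oncostatin M receptor, differed by 1.99 ± 0.28 (adjusted p = 0.0874) and Serpina3n by 2.07 ± 0.39 (adjusted p = 0.175).

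Some myeloid genes rose. Plac8, an abundant transcript of monocytes and other leukocytes, stood at 0.63 and -0.50 with iguratimod, against -6.14 and -6.50 in naive mice, and rose at least 40.3-fold (adjusted p = 0.033). Clec7a, the beta-glucan receptor and a marker of disease-associated microglia, was at 1.79 and 0.38 with iguratimod, against -2.91 and -3.24 in naive mice, a rise of 4.17 ± 0.29 (adjusted p = 0.0315). Of 13 monocyte and macrophage genes, 13 passed the filter, 2 of them only through the iguratimod arrays, 1 rose and 11 did not overlap upward. Their summed linear level was 64.9 and 31.2 with iguratimod, against 3.57 and 5.0 in naive mice. Lyz2, lysozyme, the brightest of the 13 on the iguratimod arrays, weighed most in that sum there. It was at 5.60 and 4.19 with iguratimod, against 0.91 and 0.82 in naive mice (4.03 ± 0.45, adjusted p = 0.06). Of 14 disease-associated microglia genes, Clec7a and Ch25h, cholesterol 25-hydroxylase, rose, Ch25h by 3.22 ± 0.31, and 12 did not overlap upward. Homeostatic microglia genes had a median of -0.03. Among them the purinergic receptor P2ry12 differed by -0.40 ± 0.21 and Fcrls by -0.79 ± 0.19 (adjusted p = 0.32). Sirpb1b, at least 9.48-fold higher, and Slamf8, at least 10.5-fold higher, are further called genes known from myeloid cells. Itgax, which encodes CD11c, was at -0.20 and -2.62 with iguratimod, against -5.53 and -5.87 in naive mice (adjusted p = 0.072).

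No member of the T and NK cell, B cell or neutrophil lists was called. Of 16 T and NK cell genes, 13 passed the filter, 7 of them only through the iguratimod arrays, since they were not above background in naive mice. The median of the 13 was 3.28, or 1.49 with these 7 at their lower bound. The summed level of the 13 was 29.3 and 34.1 with iguratimod, against 27.6 and 31.6 in naive mice. Klrb1c, the brightest of the 13, weighed most in that sum. It was at 4.42 and 4.86 with iguratimod, against 4.61 and 4.73 in naive mice, and its groups overlapped. Cd3d, a subunit of the T cell receptor complex, was at -0.68 and -2.44 with iguratimod, against -6.10 and -5.43 in naive mice (adjusted p = 0.085). Cd2 was at -1.12 and -3.44 with iguratimod, against -6.51 and -7.40 in naive mice (adjusted p = 0.067). Nkg7, a granule protein of cytotoxic cells, was at -1.37 and -3.23 with iguratimod, against -6.26 and -6.24 in naive mice (adjusted p = 0.0622). In Cd3d and Cd2, the Cx47-deficient iguratimod value exceeded the WT one by more than 1 on the log2 scale. Pdcd1, which encodes the inhibitory receptor PD-1, is not on the list and was called, at least 3.17-fold higher. Of 10 B and plasma cell genes, 7 passed the filter, with a median of -0.43. Of these, 1 did not overlap upward and 2 downward, beside 14.9% and 18% of all genes. Of 11 neutrophil genes, 10 passed the filter, 2 of them only through the iguratimod arrays, and 10 did not overlap upward. S100a9, a calprotectin subunit, was at 1.81 and 2.33 with iguratimod, against -0.62 and -0.38 in naive mice (2.57 ± 0.30, adjusted p = 0.063). Its partner S100a8 differed by 2.65 ± 0.37 (adjusted p = 0.0874). The summed neutrophil level was 8.08 and 9.84 with iguratimod, against 1.5 and 1.80 in naive mice. S100a9, the brightest neutrophil gene, weighed most in that sum.

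Vessel genes also stood higher, and none was called. Of 12 endothelial genes, 11 passed the filter and 9 did not overlap upward, with a median of 1.54. Their summed level was 22.4 and 26.4 with iguratimod, against 6.34 and 11.4 in naive mice. Ly6a and Ly6c1 had the largest differences of the list. Ly6c1 weighed much in that sum, at 3.12 and 3.29 with iguratimod, against -0.57 and 1.11 in naive mice. Ly6c2 on the monocyte list had close levels, at 3.12 and 3.15 with iguratimod, against -0.93 and 0.91 in naive mice. Whether their probes read the same RNA was not tested. Pecam1 differed by 0.01. Cldn5, a tight junction protein of the blood-brain barrier, was at 0.47 and 1.1 with iguratimod, against -1.90 and -0.64 in naive mice (2.06 ± 0.59, adjusted p = 0.46). Vwf, von Willebrand factor, differed by 2.46 ± 0.48 (adjusted p = 0.19). Summed endothelial, monocyte and neutrophil markers were thus higher beside the inflammatory genes above. Dendritic cell markers summed to 45.6 and 45.3 with iguratimod, against 51.7 and 54.8 in naive mice. Siglech, also on the homeostatic microglia list, was the brightest of them and weighed most in that sum. It was at 5.44 and 5.44 with iguratimod, against 5.63 and 5.74 in naive mice. Of the 6 dendritic cell markers that passed the filter, 3 did not overlap upward and 1 downward, with a median of 0.43. B and plasma cell markers summed to 0.839 and 0.598 with iguratimod, against 1.0 and 0.683 in naive mice. The part of these cells in the results was not tested.

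**Figure D3:**
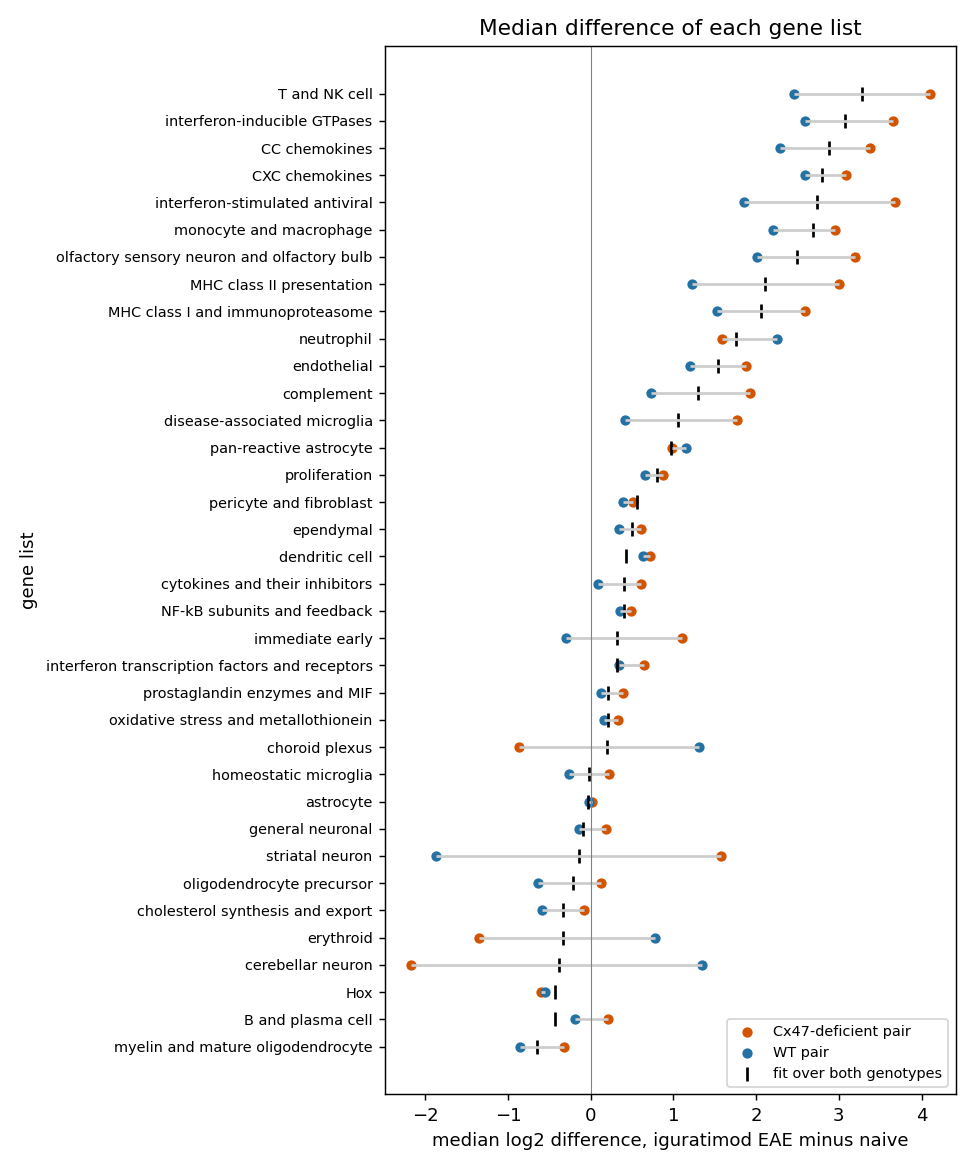
Median difference, iguratimod-treated EAE minus naive, of each gene list on the log2 scale, in the Cx47-deficient pair (orange), the WT pair (blue) and the fit over both (black bar). Members not above background in naive mice enter at their fitted difference, 7 of 13 in the T and NK cell list, whose median of 3.28 is 1.49 with them at their lower bound. Striatal and cerebellar neuron genes split by genotype.

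No gene passed the test downward, and the lower groups were small in size. Of 16 myelin and oligodendrocyte genes, 9 had both iguratimod arrays below both naive arrays and 0 above, with a median of -0.65, beside the 18% of all genes without overlap downward. Mog, myelin oligodendrocyte glycoprotein, was at 0.80 and 0.53 with iguratimod, against 1.36 and 1.62 in naive mice (-0.82 ± 0.25, adjusted p = 0.51). Cnp, an enzyme of myelin, was at 4.04 and 4.01 with iguratimod, against 4.59 and 4.80 in naive mice (-0.67 ± 0.24, adjusted p = 0.64). Of 15 genes of cholesterol synthesis and export, a pathway that myelin formation draws on, 8 did not overlap downward, with a median of -0.34. Sqle, squalene epoxidase, differed by -0.63 ± 0.22 (adjusted p = 0.64). Of 13 Hox genes, 7 did not overlap downward, with a median of -0.43, and Hoxd8 differed by -0.68 ± 0.16 (adjusted p = 0.29). The 3 medians stayed below 0 in the alternatives computed for them, at -0.81 to -0.38 for myelin, -0.55 to -0.11 for cholesterol and -0.63 to -0.30 for Hox genes.

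The 12 genes with the largest lower values shared by both genotypes were mostly dim. None passed the test, and 9 of them were not well above background on either iguratimod array. Cldn23, a claudin, was at -7.32 and -6.99 with iguratimod, against -5.35 and -4.91 in naive mice. That difference is bounded only at 1.18-fold or more (adjusted p = 0.0912). Gm36012 was the only 1 of the 12 above background on all 4 arrays, at -5.02 and -4.44 with iguratimod, against -3.54 and -3.27 in naive mice (-1.33 ± 0.41, adjusted p = 0.515).

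Of the genes closest to the known action of iguratimod, Cd74 alone was called. Iguratimod is described as an inhibitor of cyclooxygenase 2, of NF-kB activation and of macrophage migration inhibitory factor. Ptgs2, which encodes cyclooxygenase 2, was at -2.89 and -2.50 with iguratimod, against -3.30 and -2.81 in naive mice (0.36 ± 0.19, adjusted p = 0.78). Mif was at 5.43 and 5.60 with iguratimod, against 5.14 and 5.47 in naive mice (0.21 ± 0.18, adjusted p = 0.83). The groups overlapped in both genes. Of 15 genes of prostaglandin synthesis and MIF signalling, Cd74 was the called one, and the median was 0.21. Of 15 NF-kB subunits and feedback genes, 14 passed the filter, none was called and 8 did not overlap upward. Bcl3, an atypical inhibitor of the NF-kB family, differed most among them, by 2.80 ± 0.32 (adjusted p = 0.062), followed by the adhesion molecule Icam1, by 1.93 ± 0.23 (adjusted p = 0.066). Of 15 cytokines and inhibitors only 8 passed the filter. Il6, Il1a, Lif, Il12b, Il23a, Il10 and Csf2 did not, so no level is given for them. Il1b, interleukin 1 beta, was at -1.77 and -3.01 with iguratimod, against -7.47 and -7.04 in naive mice (adjusted p = 0.11).

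Some called genes are known from the olfactory system. S100a5, a calcium-binding protein gene expressed in mouse olfactory sensory neurons, stood at 0.75 and 0.95 with iguratimod, against -7.51 and -7.11 in naive mice. The naive values were not above background, and S100a5 rose at least 69.4-fold (adjusted p = 0.0478). Scgn, secretagogin, a calcium sensor of olfactory bulb interneurons, was at -2.39 and -2.17 with iguratimod, against -7.71 and -7.31 in naive mice, at least 7.93-fold higher (adjusted p = 0.0296). Tbx21 was at -0.31 and -1.53 with iguratimod, against -6.62 and -5.85 in naive mice, at least 20.4-fold higher (adjusted p = 0.0492). Tbx21 encodes T-bet, a transcription factor both of type 1 helper T cells and of mitral and tufted cells, the output neurons of the olfactory bulb.

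A list of 19 olfactory sensory neuron and olfactory bulb genes was drawn up after these values were seen, so it describes and supports nothing. All 19 passed the filter, 3 of them only through the iguratimod arrays, 3 were called, and 14 did not overlap upward, with a median of 2.49. Omp, olfactory marker protein, was at -0.51 and 1.24 with iguratimod, against -3.89 and -3.38 in naive mice (4.0 ± 0.92, adjusted p = 0.28). Cdhr1, a cadherin of mitral and tufted cells, was at 2.16 and 0.87 with iguratimod, against -2.77 and -2.17 in naive mice (3.99 ± 0.45, adjusted p = 0.06). Nmb, neuromedin B, differed by 2.64 ± 0.29 (adjusted p = 0.0599) and Doc2g by 3.62 ± 0.41 (adjusted p = 0.0604). Th, tyrosine hydroxylase, present in dopaminergic interneurons of the bulb among other cells, was at 3.54 and 2.79 with iguratimod, against 0.65 and 1.33 in naive mice (2.17 ± 0.40, adjusted p = 0.17). In 11 of the 19 genes all 6 arrays of untreated, treated and chronic EAE lay above both naive arrays, a pattern of 3.03% of all genes. S100a5, for instance, was at -0.53 and -2.69 on the chronic arrays. The part that the tissue taken has in these levels was not tested.

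**Figure D4:**
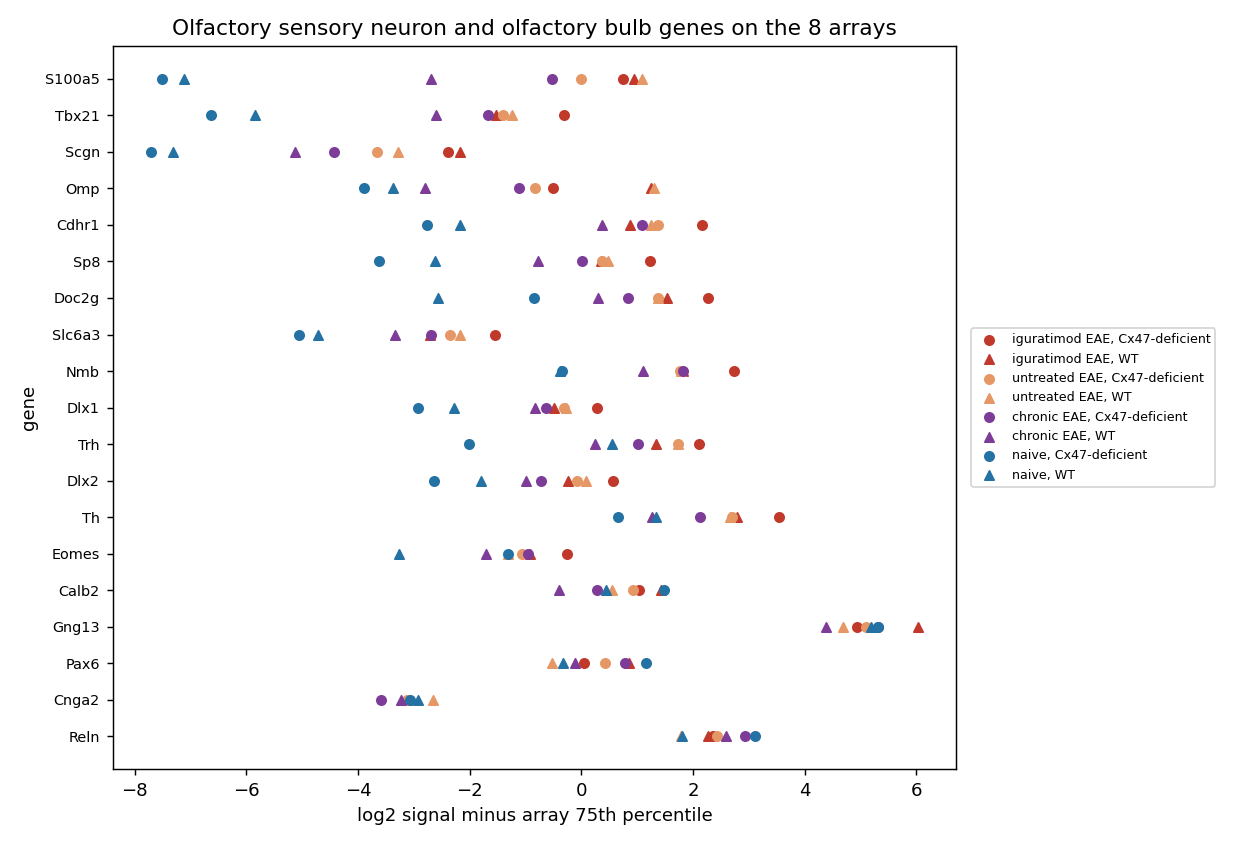
Levels of 19 olfactory sensory neuron and olfactory bulb genes on the 8 arrays, as log2 signal minus the array's 75th percentile, with circles for Cx47-deficient and triangles for WT mice. The naive arrays (blue) lie below all 6 others in 11 of the 19 rows.

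The same genes were set beside untreated EAE, which shares the iguratimod arrays with the comparison above. Limma called 0 of 22854 genes between iguratimod-treated and untreated EAE, with 89 higher (0.389%) and 208 lower (0.91%) at an unadjusted p under 0.05, 1.3% in all. A p that misses the threshold in 2 arrays against 2 does not show that the conditions were alike. Of the 46 called genes, 39 had a lower fitted level with iguratimod than in untreated EAE, with a median difference of -0.56. Cxcl10 was at 1.52 and 0.32 with iguratimod, against 2.20 and 1.52 in untreated EAE. Its difference was -0.94 ± 0.19, small beside its rise over naive mice. C3 was at 2.55 and 1.30 with iguratimod, against 3.40 and 2.34 in untreated EAE (-0.95 ± 0.29). In both genes the groups overlapped, because the 2 genotypes differed within each condition.

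Within both genotypes, 36 of the 46 genes were lower with iguratimod than in untreated EAE, beside 20% of all genes. Cxcl10 differed by -0.67 in the Cx47-deficient pair and -1.20 in the WT pair. Among the 46 genes, 5 had both iguratimod arrays below both untreated arrays, beside 11.2% of all genes. They were Ccl2, Igtp, Ch25h, Ifitm1 and Tgm1, a transglutaminase, named here after their values were seen. Ccl2 was at 0.32 and -0.58 with iguratimod, against 0.90 and 0.44 in untreated EAE (-0.80 ± 0.34). Tgm1 had the lowest difference among called genes (-1.0 ± 0.20), and Scgn the highest, 1.19 ± 0.31. The same separation was seen in 10 of 11 endothelial, 9 of 11 pericyte and fibroblast, 7 of 9 proliferation and 8 of 12 reactive astrocyte genes. Gfap was at 3.51 and 3.17 with iguratimod, against 3.87 and 3.83 in untreated EAE (-0.51 ± 0.21). Vwf was at -1.20 and -0.62 with iguratimod, against 0.01 and 0.42 in untreated EAE (-1.12 ± 0.48). No antiviral gene and no class II gene showed this separation.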

How the data were processed

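The series used 8 Agilent arrays of 1 colour, 1 per genotype and condition. Per the file headers, the deposited spot signals are intensity values from Feature Extraction 10.7.1.1, with background and spatial trend subtracted. The submitters' processing notes name version 9.5.1.1. The deposited table of the authors' processed values holds intensity on a linear scale, with unstated scaling and a median of 50.2 on every array; it tracked the scanner values and was used as an alternative. Other deposited columns, per the file headers, are flags of 1 or 0 for each spot.

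Processed signals were put on a log2 scale here, with each array's 75th percentile subtracted, since the authors deposited no log2 values. Probes had to be well above background on 2 or more of the 4 arrays used, which left 34812 probes. For each of 22854 genes the brightest such probe by mean level was taken, with a choice to make in 7925 genes. RefSeq's gene table gave names by accession to 32994 of the 56605 probes, by symbol to 10224 and by synonym to 520, and 12867 kept the design's name.

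Limma 3.58.1 in R 4.3.3 fitted condition plus genotype over all 8 arrays (3 residual degrees of freedom, 2.38 prior ones, prior SD 0.217 on the log2 scale), and genes were called at an adjusted p under 0.05. Pairs of single arrays were not tested. For a gene not above background on either naive array, the lower bound sets the iguratimod mean against each naive array's dimmest well-above-background signal, or the probe's own where higher. The fit was tested on simulated data. Named genes were the 12 largest called rises, the 12 largest lower genes (none called, so filled by the largest differences shared by both genotypes), up to 4 members per list with the largest differences, always 12 further genes (among them Gfap, Cxcl10 and C3), and those differing most between genotypes, with a RefSeq symbol. Further called genes, list members near the threshold and olfactory genes were named after their values were seen. The members and lists were chosen with earlier results of these data known. Some items that the rule names are not reported here. The number of arrays limits the precision. Alternatives were quantile normalization, median centring, normexp, the authors' values, other filters, probe means, other sets of arrays, a fit without genotype, limma-trend and leaving out each array.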

Additional observations from a re-analysis of the deposited data

Results flagged for a closer look

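In 10 lists the median difference between iguratimod-treated EAE and naive arrays had opposite signs in the 2 genotypes, and the difference was not tested, since each genotype held 1 array per condition. Brain region markers split furthest. Striatal neuron genes had a median of 1.58 in the Cx47-deficient pair and -1.87 in the WT pair, and their summed linear level was 110 and 56.4 with iguratimod, against 51.2 and 145 in naive mice. Cerebellar neuron genes ran the other way, with a median of -2.17 in the Cx47-deficient pair and 1.34 in the WT pair, and a summed level of 89.9 and 277 with iguratimod, against 290 and 110 in naive mice. Choroid plexus genes had medians of -0.87 and 1.31, erythroid genes -1.35 and 0.78, and immediate early genes 1.11 and -0.29, each in the Cx47-deficient pair and then the WT pair.

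Smaller splits, given in the same order, were those of oligodendrocyte precursor genes (0.12 and -0.64), homeostatic microglia genes (0.22 and -0.26), B and plasma cell genes (0.21 and -0.19), general neuronal genes (0.18 and -0.14) and astrocyte genes (0.0202 and -0.025).

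Among single genes, Adora2a, the adenosine receptor of striatal neurons, differed by 5.31 in the Cx47-deficient pair and -3.29 in the WT pair, and the dopamine receptor Drd1 by 2.65 and -2.91. Cbln3, a cerebellin of cerebellar granule cells, differed by -2.99 in the Cx47-deficient pair and 1.68 in the WT pair. Ttr, transthyretin, the leading choroid plexus transcript, differed by -0.47 and 1.87. These differences were not tested.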

How the results depend on the processing

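All 46 called genes kept a positive difference wherever they were tested, but their number changed. It was 18 with quantile normalization (16 shared), 303 with median centring, which also called 2 lower and moved the median of all genes to 0.10, 18 in the authors' values, 20 of 21 tested when all 4 arrays had to be above background, 1 (Cxcl10) with no filter, 143 with limma-trend, 3 (Cxcl10, S100a5 and Scgn) on slide 1 alone and 0 with the 4 arrays alone. Normexp gave 64 (26 shared), probe means 62 and no genotype term 41 (29 shared). Leaving out 1 array gave 0 to 60 genes: 2 without either untreated EAE array (Cxcl10 and Ms4a15) and 3 without either chronic one. Why these counts moved was not tested. Calls between treated and untreated EAE stayed at 0 in every setting that held untreated arrays. WT 2-fold counts fell to 260 higher and 48 lower with normexp and 238 and 26 at 3-fold. Cx47-deficient counts were 2170 and 1228 with median centring, 697 and 676 with normexp, and 591 and 624 at 3-fold. Genes without overlap downward numbered 1971 with median centring and 6969 with no filter. Signs turned in Snap25 (0.0315) and Gja1 (0.073) with median centring, Gjb6 (-0.10) and Gbp5 (1.19) with probe means and Drd1 (0.0008) with median centring. With 1 array left out, Gja1 ranged from -0.28 to 0.16, Gjb6 from -0.19 to 0.29, Aqp4 from -0.30 to 0.54, Drd1 from -2.27 to 2.01, Cbln3 from -2.68 to 1.37, Adora2a from -1.93 to 3.94 and Ttr from -0.60 to 2.0. No paired analysis was possible because each group held only replicate 1. The fit pairs arrays by its genotype term instead. Slide and chronic EAE cannot be told apart.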
